A study of Mus musculus with 4 samples.

Results

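The genes described here build the machinery that reads mRNA into protein: the initiation factors (symbols starting with Eif), the elongation factors (symbols starting with Eef) and the cytosolic aminoacyl-tRNA synthetases named by a single letter and ars. They were picked by a rule on gene symbols that uses no measured value, and the interferon-induced kinase Eif2ak2 was left out. The choice was made with earlier results of these data known. On the arrays 76 of 13069 probe sets carried such a symbol and no other, standing for 53 of 6137 named genes: 34 initiation, 7 elongation and 12 synthetase genes. Each probe set is a group of short oligonucleotides that together report 1 transcript.

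RNA came from peritoneal exudate cells of Cebpe-deficient mice (C/EBPe-/-) and of wild-type mice (C/EBPe+/+), both of mixed 129/SvEv x NIH Black Swiss background and 6 to 8 weeks old. Cebpe encodes the transcription factor C/EBPε, which acts late as granulocytes mature, and per the labels the study looked for genes it may control in neutrophils and macrophages. All mice, of both genotypes, had received 2 ml of 4% thioglycollate broth, a sterile irritant, into the peritoneal cavity 24 h before lavage. The labels give 4 mice per genotype and about 30% monocytes, 60% neutrophils and 7 to 10% lymphocytes in either genotype, and the passage on how cells were combined breaks off. Total RNA of each genotype was hybridised to 1 array of each of 2 Affymetrix types, A and B, which carry different probe sets. No comparison below has a replicate array, so none has a test or a p-value.

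Translation starts when eIF2 brings the initiator tRNA to the small ribosomal subunit, eIF3 holds the complex together and the eIF4 factors recruit the capped mRNA and unwind it. In elongation eEF1A delivers each charged tRNA, the eEF1B complex recharges eEF1A with GTP, and eEF2 moves the ribosome on. The synthetases attach each amino acid to its tRNA. Dividing and growing cells need much of this machinery, and mature neutrophils make less protein than their precursors.

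The deposited values are intensities in array units, and the median of both arrays of a type (1036.5 on A, 690.1 on B) served as a floor. A log2 ratio, Cebpe-deficient over wild-type, was formed only where both arrays lay above it. Ranks of probe sets agreed closely between genotypes (Spearman rho 0.929 on A and 0.921 on B), and scaling between them moved values by at most 0.0234%. Repeat probe sets of the same gene differed with a pooled SD of 0.35 log2 units where the signal was 3 or more times the floor and 0.45 below that. This SD is the only error available, and it holds no spread between mice. Of the 9 neutrophil markers 8 were above the floor in deficient cells and 9 in wild-type cells, and of the 8 macrophage markers 8 were above it in deficient and 7 in wild-type cells. Among T cell markers Cd3d, Cd3g and Cd8a gave no signal above the floor in either genotype, and Cd3e read 921 in deficient cells, under it, and 1901 in wild-type cells (at least 1.83-fold lower). No probe set carried the symbol Cebpe alone, so the targeted gene itself was not checked here.

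Levels of most of these genes were close in Cebpe-deficient and wild-type cells, and 4 genes stood beyond 2-fold. The asparaginyl- and glutaminyl-tRNA synthetase genes Nars and Qars were higher in deficient cells (2.76-fold and 2.10-fold), and Eif5a and the seryl-tRNA synthetase gene Sars were lower (2.52-fold and 2.28-fold). All 6 measured elongation genes lay below 0, beside 48.9% of all measured genes, though Eef1a1 and Eef2 did not under every scaling. The initiation genes were split evenly around 0, and the synthetases spread widely in both directions. Of the 53 genes 41 had a ratio, 2 were above the floor in deficient cells alone (Eif4h and Cars) and 10 were above it in neither genotype. The share measured was 77.4%, against 51.0% of all named genes.

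Among the 41 measured genes 24 were below 0 (58.5%), against 48.9% of the 3131 measured genes of the series. The median log2 ratio was -0.17, against 0.01 over all measured genes. The 2 genes lower by 2-fold or more stand beside 3.64% of all measured genes past that mark, and the 2 higher ones beside 2.97%. Either way this is 9.76% of the measured members against 6.61% of all. At 1.5-fold 6 genes were lower (Eif5a, Sars, Eef2k, Eif4a1, Eif2b5 and Hars) and 3 higher (Nars, Qars and Eif3k), beside 11.4% and 11.7% of all measured genes. For 28 of the 41 genes the ratio was within 1 measurement SD of 0, beside 59.4% of all measured genes. For 7 it was beyond 2 SD (Eif5a, Eif4a1, Eif3k, Eef2k, Nars, Qars and Sars), beside 13.0% of all measured genes. Among the 28 members with a mean signal of 3 or more times the floor, 18 were below 0, beside 49.2% of all such genes, and 2 (Nars and Eif5a) were past 2-fold either way, beside 6.59%. Neither of the 2 genes with a bound reached 2-fold, beside 19.1% of all genes with a bound only. Scaling to the bacterial hybridisation controls lifted the median of all genes to 0.21, and the members' median then became 0.037, which was 0.17 below that of all genes.

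**Figure D1:**
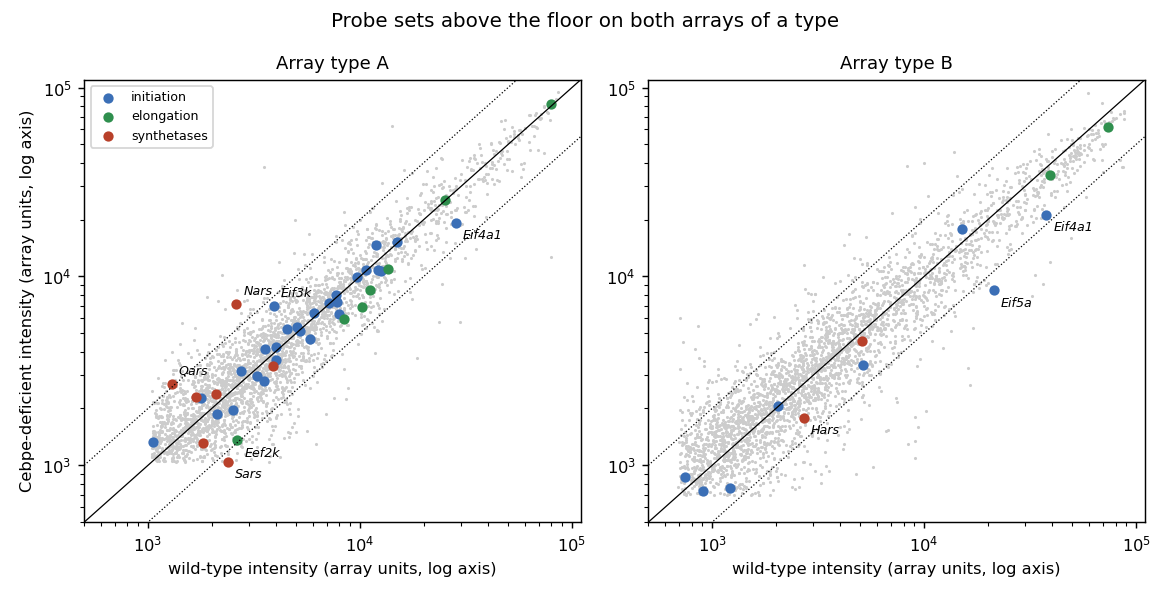
Intensity in Cebpe-deficient (vertical) against wild-type cells (horizontal), both on log axes in array units, for every probe set with a ratio. Grey points are all probe sets, coloured points the members by class, the solid line marks equality and the dotted lines 2-fold. Nars and Qars lie above the upper dotted line on A, Sars lies below the lower dotted line on A, and Eif5a does so on B.

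**Figure D2:**
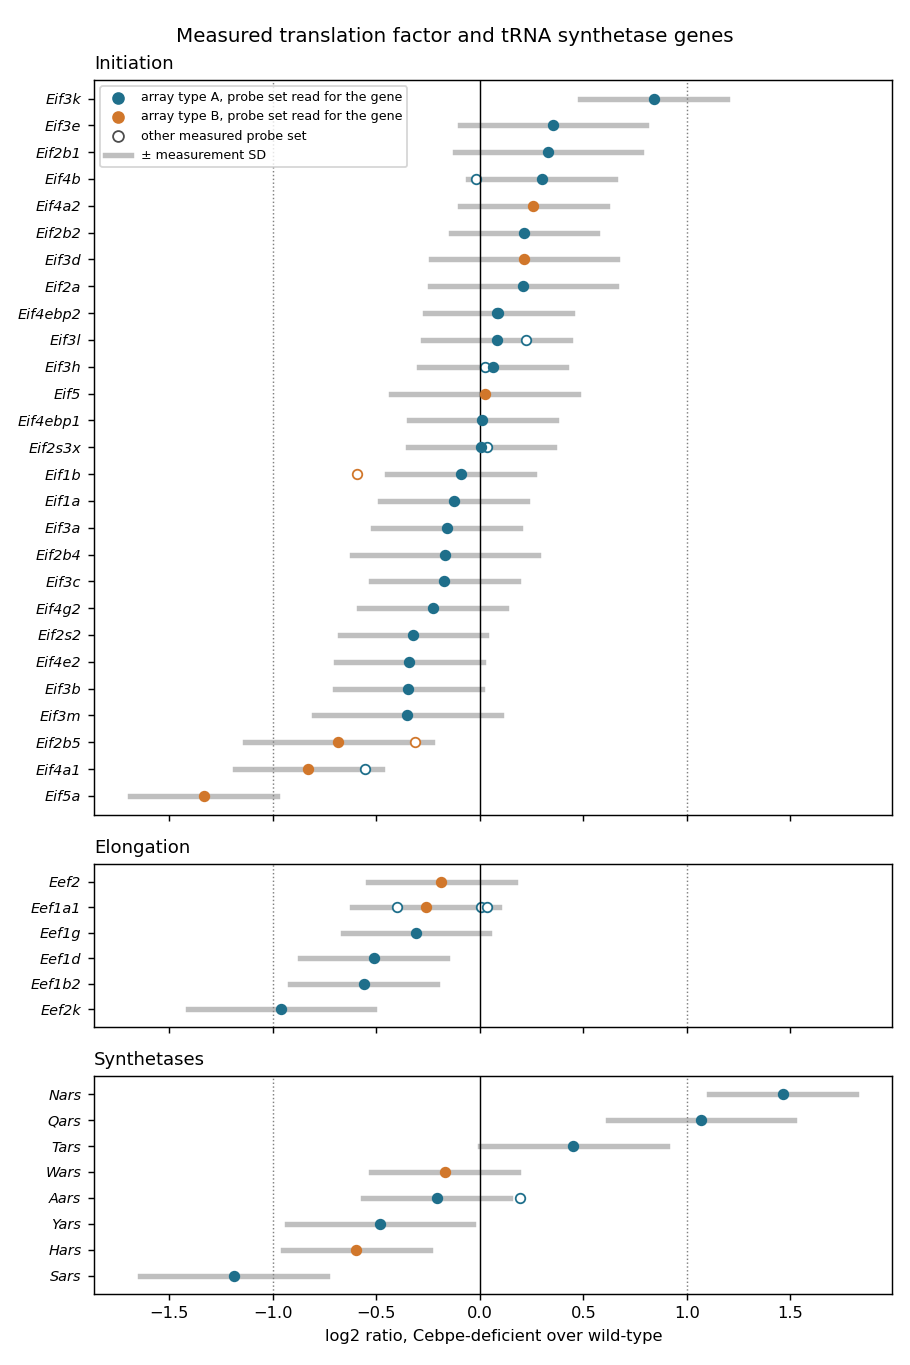
Log2 ratio, Cebpe-deficient over wild-type, of the 41 measured genes by class. Filled points are the probe set read for the gene (blue on A, orange on B), open points its other measured probe sets, and grey bars span 1 measurement SD to each side. By their filled points the 27 initiation genes are centred near 0, the 6 elongation genes are all left of 0, and the 8 synthetases run from -1.19 to 1.46.

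The initiation genes as a class stood where all genes stood. Of 27 measured, 13 were below 0 and 14 above, with a median log2 ratio of 0.00 (0.01 over all measured genes). The extremes were Eif5a at -1.33 and Eif3k at 0.84. The class differed by array type: the median was -0.04 over 22 genes on A and -0.60 over 7 genes on B.

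Eif5a encodes a factor that helps ribosomes through difficult stretches and in release, and it is the protein known to carry hypusine, an amino acid made from spermidine. Its probe set on B read 8423 in deficient cells, against 21250 in wild-type cells, a log2 ratio of -1.33 ± 0.35 (measurement SD). That is 2.52-fold lower in deficient cells, at a mean signal 21.5 times the floor. Its other probe set, on A, read -1860 in deficient and -1081 in wild-type cells, below the floor in both, and gives no second measure. Of the enzymes that make hypusine, Dohh read 15125 in deficient and 20497 in wild-type cells (-0.44), and Dhps read 2003 and 1624 in the same order (0.30). The spermidine synthase gene Srm was at -0.77, and Odc1, the entry enzyme of polyamine synthesis, at -0.35.

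The RNA helicase that unwinds the 5′ leader exists as paralogues, Eif4a1 and Eif4a2, and their ratios had opposite signs. Eif4a1 read 21167 in deficient cells, against 37634 in wild-type cells on B (-0.83 ± 0.35), and 19280 against 28349 on A (-0.56 ± 0.35). Both array types thus gave lower Eif4a1 signal in deficient cells, by 1.78-fold on B. Eif4a2 read 17931 in deficient and 15006 in wild-type cells on B, a log2 ratio of 0.26 ± 0.35, which is within the measurement error. Both Eif4a1 probe sets are of the kind that Affymetrix marks as shared within a sequence family, so signal from close relatives cannot be separated from it.

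The promoters of this pair are shown because their log2 ratios had opposite signs. Sequences are from RefSeq on GRCm38.p6, 250 bases before to 30 bases after the annotated start, 5′ to 3′ along the gene. Capitals mark the E-box CACGTG, bound by the MYC family, the CCAAT box (CCAAT or ATTGG), the composite element of ATF4 and C/EBP (TGATGNAA or TTNCATCA) and a pair of C/EBP half-sites (TTGCNNAA or TTNNGCAA). Both strands were searched, and the composite element can share bases with a half-site pair. The Eif4a1 window is chr11:69672394-69672673, minus strand, and that of Eif4a2 is chr16:23107218-23107497, plus strand.
Eif4a1: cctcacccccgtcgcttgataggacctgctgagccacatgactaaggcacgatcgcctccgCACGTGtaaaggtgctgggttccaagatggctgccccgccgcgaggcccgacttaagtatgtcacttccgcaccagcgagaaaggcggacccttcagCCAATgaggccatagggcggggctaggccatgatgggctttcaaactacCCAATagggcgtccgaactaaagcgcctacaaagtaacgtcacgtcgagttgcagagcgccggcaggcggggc
Eif4a2: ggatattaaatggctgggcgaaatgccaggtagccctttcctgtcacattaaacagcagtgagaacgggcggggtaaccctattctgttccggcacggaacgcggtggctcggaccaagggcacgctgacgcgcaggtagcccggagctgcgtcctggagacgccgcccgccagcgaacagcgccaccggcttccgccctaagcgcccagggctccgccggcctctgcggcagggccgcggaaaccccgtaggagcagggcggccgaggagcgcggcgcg

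In these windows Eif4a1 has an E-box whose first base is at -189 from the start and CCAAT boxes at -92 and -43, and Eif4a2 has none of the 4 motifs. Over the full windows of 300 bases an E-box was found in 7 of the 27 initiation genes with a window, Eif5a and Eif3k among them. It was in 7.15% of all 32851 windows, or 8.09% of 27025 genes. Of these 7 initiation genes Eif4a1 and Eif5a read lower and Eif3k higher in deficient cells. Eif1b (-0.09) and Eif3a (-0.16) lay within 1 measurement SD of 0 by the probe sets read for them, and Eif4e and Eif4h had no ratio. An E-box was also in 2 of 5 elongation and 2 of 7 synthetase genes with a window. CCAAT boxes were in 10 of the 27 initiation genes, beside 37.4% of all windows and 41.1% of all genes. A match is a run of letters, not a site shown to be bound.

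In the rest of the cap-binding group the measured genes, Eif4b, Eif4g2 and Eif4e2, lay within 1 measurement SD of 0. Eif4b, which stimulates the helicase, read 14697 and 5141 in deficient cells by its 2 probe sets, against 11947 and 5207 in wild-type cells (0.30 and -0.02). Eif4g2 (DAP5), a scaffold of cap-independent initiation, read 10699 in deficient and 12520 in wild-type cells (-0.23). Eif4e2, a cap-binding protein that represses initiation, was at -0.34. The cap-binding factor Eif4e itself read 40 in deficient and 96 in wild-type cells, both below the floor. Eif4h, the other helicase cofactor, read 827 in deficient and -53 in wild-type cells, which gives a bound of at least 1.20-fold higher against the floor.

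Repressors of eIF4E lay near 0 by all but 1 probe set. Eif4ebp1 read 15143 in deficient and 15019 in wild-type cells, a log2 ratio of 0.01 ± 0.35. Eif4ebp2 read 5396 and 4243 in deficient cells, against 5071 and 4009 in wild-type cells (0.09 and 0.08). A further Eif4ebp2 probe set, marked as incomplete by its suffix, read 819 in deficient and 3060 in wild-type cells and would give a bound of at least 2.95-fold lower, at odds with the other 2. Eif4enif1, which carries eIF4E into the nucleus, did not reach the floor in either genotype.

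Of the 11 genes of eIF3, 9 were measured, with 4 below 0 and 5 above and a median of 0.06. Eif3k, a small peripheral subunit, read 7007 in deficient cells, against 3912 in wild-type cells, a log2 ratio of 0.84 ± 0.35 and the highest of the initiation genes. The core subunits Eif3a and Eif3c stood at -0.16 and -0.17, and Eif3b, another core subunit, read 6295 in deficient and 7993 in wild-type cells (-0.35). Eif3m read 1973 in deficient and 2514 in wild-type cells (-0.35), and Eif3e read 2275 and 1780 in the same order (0.35). The complex thus held genes on both sides of 0, and all but Eif3k lay between -0.35 and 0.35. Eif3h read 8012 and 7261 in deficient cells, against 7671 and 7134 in wild-type cells (0.06 and 0.02). Eif3l, the partner of eIF3k within the complex, read 6385 and 5268 in deficient cells, against 6036 and 4507 in wild-type cells (0.08 and 0.22). Eif3d was at 0.21. Eif3i and Eif3j1 were below the floor in both genotypes.

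The eIF2 pathway carries the initiator tRNA and is the point where stress kinases slow translation. Its subunit gene Eif2s3x read 10760 and 9870 in deficient cells, against 10718 and 9633 in wild-type cells (0.00 and 0.03). Eif2s2 was at -0.32, while its second probe set read -2 in deficient and 30 in wild-type cells, below the floor in both. Of eIF2B, the exchange factor that reloads eIF2, Eif2b1 read 1327 in deficient and 1055 in wild-type cells (0.33), Eif2b2 was at 0.21 and Eif2b4 at -0.17. The catalytic subunit Eif2b5 read 756 in deficient and 1215 in wild-type cells, and 728 and 906 in the same order by its second probe set. Its ratios of -0.68 and -0.32 come from signal within 1.43 times the floor, where the measurement SD is 0.45. Eif2a, a separate factor of non-canonical initiation, was at 0.21, and neither probe set of Eif2d reached the floor.

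Among the remaining initiation factors, Eif5, which triggers GTP hydrolysis by eIF2, read 2071 in deficient and 2040 in wild-type cells (0.02). Eif1a, which promotes scanning, was at -0.13. Eif1b, a relative of the start-site factor eIF1, was at -0.09 on A (7291 in deficient, 7769 in wild-type cells) and at -0.60 on B (3399 and 5138 in the same order). Eif6, which keeps the ribosomal subunits apart, read below 0 on both arrays.

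The elongation genes were the class whose measured members all lay below 0, 6 of 6, beside 48.9% of all measured genes. The ratios of Eef1a1 and Eef2 depended on the scaling. Both turned above 0 (0.07 and 0.14) when arrays were scaled to the bacterial controls. They were at -0.06 and -0.04 with loess, -0.07 and -0.10 with quantile scaling, and -0.44 and -0.36 with medians made equal. Eef1a1 was at 0.03 on A. The class median log2 ratio was -0.41, against 0.01 over all measured genes, and no gene of the class reached 2-fold. With the class split by array type it was -0.51 over 5 genes on A and -0.22 over 2 genes on B.

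All 3 genes of the eEF1B exchange complex had ratios below 0. The probe sets of Eef1b2 and Eef1g are of the kind marked as shared within a sequence family. Eef1b2 read 6901 in deficient and 10185 in wild-type cells (-0.56 ± 0.35). Eef1d read 5914 in deficient and 8442 in wild-type cells (-0.51 ± 0.35). Eef1g, its structural subunit, read 11003 in deficient and 13623 in wild-type cells (-0.31 ± 0.35). The differences of Eef1b2 and Eef1d exceed 1 measurement SD and that of Eef1g does not, beside 59.4% of all measured genes within 1 SD. Under every scaling tried the 3 stayed below 0, with extremes of -0.59 and -0.14.

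The abundant factor genes Eef1a1 and Eef2 differed less by the probe sets read for them. Eef1a1 read 81949, 25414 and 8440 in deficient cells by its probe sets on A, against 80048, 25307 and 11153 in wild-type cells, and 61757 against 74059 on B. The 4 log2 ratios, 0.03, 0.01, -0.40 and -0.26, disagreed in sign, and all 4 probe sets are of the shared-family kind. Eef2 read 34532 in deficient and 39330 in wild-type cells on B (-0.19), also by a shared-family probe set. Its probe set on A read -1736 in deficient and -1609 in wild-type cells. Eef1a2, the paralogue of muscle and neurons, read 364 in deficient and 55 in wild-type cells, below the floor in both.

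Eef2k, the kinase that phosphorylates eEF2 and thereby slows elongation, had the lowest ratio of the class. It read 1353 in deficient cells, against 2632 in wild-type cells, a log2 ratio of -0.96 ± 0.45. This is 1.95-fold lower, from signal 1.92 times the floor on average. With the floor at the 70th percentile of signal Eef2k was no longer measured and the class median was -0.31.

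**Figure D3:**
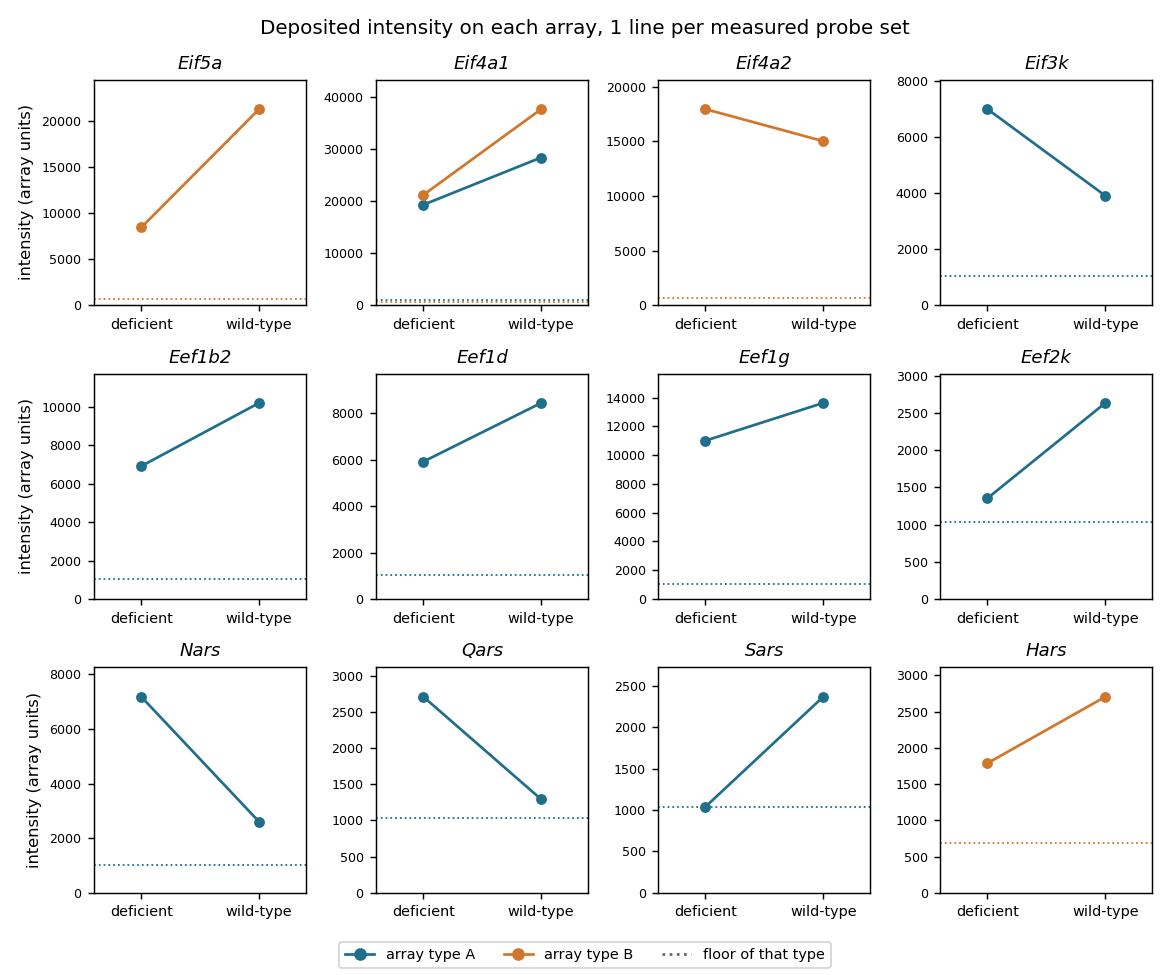
Deposited intensity (array units, linear axes from 0) of 12 members in Cebpe-deficient (left) and wild-type cells (right), with 1 line per measured probe set, blue on A and orange on B, and dotted lines at the floor of that type. Lines that fall to the right are higher in deficient cells (Nars, Qars, Eif3k, Eif4a2). Those that rise to the right are lower, and for Sars the deficient reading of 1040 sits on the floor.

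The synthetases spread most. Of 12 genes 8 were measured, 5 below 0 and 3 above, with a median of -0.19 that turned to 0.058 with bacterial-control scaling and to 0.12 on A alone. Nars read 7179 in deficient cells, against 2602 in wild-type cells, a log2 ratio of 1.46 ± 0.35, the highest of all members. Qars, a member of the cytosolic multi-synthetase complex, read 2709 in deficient and 1292 in wild-type cells (1.07 ± 0.45). Sars read 1040 in deficient and 2372 in wild-type cells (-1.19 ± 0.45), and its deficient reading was just above the floor of 1036.5. Each of these 3 rests on a single probe set on A. With the floor at the 70th percentile Qars and Sars were no longer measured, and Nars and Eif5a remained past 2-fold.

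The histidyl enzyme gene Hars read 1789 in deficient and 2706 in wild-type cells on B (-0.60 ± 0.35), and Wars, whose product also has a secreted form, read 4542 and 5110 in the same order (-0.17 ± 0.35). Yars read 1307 in deficient and 1824 in wild-type cells (-0.48 ± 0.45) by its measured probe set and was below the floor by its other 2. Tars read 2292 in deficient and 1675 in wild-type cells (0.45 ± 0.45). The alanyl enzyme gene Aars read 3350 and 2393 in deficient cells, against 3869 and 2092 in wild-type cells (-0.21 and 0.19), so its probe sets differed in sign. Cars read 1426 in deficient cells and 1030, just under the floor, in wild-type cells, a bound of at least 1.38-fold higher. Rars read 279 in deficient and 1022 in wild-type cells, Mars1 read -1164 and 531, and Kars -1422 and -935, in the same order, all below the floor.

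Many synthetase genes are known targets of ATF4, which pairs with C/EBP proteins at the composite element when amino acids run short. That element was found in 3 of the 7 synthetase genes with a promoter window (Aars, Tars and Yars) and in 3.97% of all windows, or 4.51% of genes. CCAAT boxes were in 6 of the 7 (37.4% of windows, 41.1% of genes), and a C/EBP half-site pair in 1 of them, Qars (10.8% of windows, 12.2% of genes). These 3 synthetase genes had ratios of -0.21, 0.45 and -0.48, none further than 1.07 measurement SD from 0. The element was also in 1 of 27 initiation genes with a window, Eif2s3x (0.00), and in 1 of 5 elongation genes, Eef2k (-0.96). A link between the element and the ratios was not tested. The promoters of Qars and Sars are shown as those of the measured extremes with a window, and those of Tars and Yars for the element near the start, with its first base at -15 in Tars and at position 4 of the transcript in Yars. Their windows are chr9:108507755-108508034, plus strand (Qars), chr3:108445230-108445509, minus strand (Sars), chr15:11399629-11399908, minus strand (Tars) and chr4:129189653-129189932, plus strand (Yars), marked as above.
Qars: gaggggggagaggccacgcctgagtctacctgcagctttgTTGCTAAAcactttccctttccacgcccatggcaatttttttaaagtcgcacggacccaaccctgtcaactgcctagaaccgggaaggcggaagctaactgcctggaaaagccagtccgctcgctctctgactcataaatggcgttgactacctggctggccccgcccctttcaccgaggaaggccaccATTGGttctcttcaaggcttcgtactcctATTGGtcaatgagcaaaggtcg
Sars: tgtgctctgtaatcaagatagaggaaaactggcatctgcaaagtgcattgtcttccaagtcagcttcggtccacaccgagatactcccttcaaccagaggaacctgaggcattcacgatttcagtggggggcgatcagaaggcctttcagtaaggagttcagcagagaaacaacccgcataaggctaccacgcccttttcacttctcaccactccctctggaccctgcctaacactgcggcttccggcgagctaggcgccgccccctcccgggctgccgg
Tars: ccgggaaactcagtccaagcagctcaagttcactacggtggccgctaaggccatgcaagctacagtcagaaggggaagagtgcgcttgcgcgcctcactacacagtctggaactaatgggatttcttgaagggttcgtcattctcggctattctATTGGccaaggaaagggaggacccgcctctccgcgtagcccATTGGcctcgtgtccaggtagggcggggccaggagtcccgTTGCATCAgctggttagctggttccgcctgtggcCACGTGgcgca
Yars: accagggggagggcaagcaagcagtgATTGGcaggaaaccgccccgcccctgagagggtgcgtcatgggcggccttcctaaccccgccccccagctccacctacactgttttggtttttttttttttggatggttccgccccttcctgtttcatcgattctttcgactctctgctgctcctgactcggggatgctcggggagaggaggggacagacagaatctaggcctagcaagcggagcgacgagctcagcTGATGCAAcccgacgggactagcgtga

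Sars holds none of the 4 motifs in this window, which says no more than that these letters are not there. Promoter windows matched 39 of the 53 genes. Those without one were Cars, Eef1d, Eef1g, Eif1a, Eif3e, Eif3h, Eif3i, Eif4ebp1, Eif4g2, Eif6, Hars, Nars, Rars and Wars.

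Other parts of the pathway held few genes with a ratio. Counts below 0 in these lists and in the marker lists stand beside 48.9% of all measured genes. The synthetase genes outside the symbol rule had 3 of 4 below 0, each within 1 measurement SD: Eprs at -0.09, both subunits of the phenylalanyl enzyme at 0.31 (Farsa) and -0.17 (Farsb), and the complex scaffold Aimp1 at -0.31. Among termination, recycling and poly(A)-binding genes 3 of 6 were below 0 (median -0.22). Abce1, which splits ribosomes after termination, read 1086 in deficient and 1998 in wild-type cells (-0.88), and the release factor gene Gspt1 was at -0.58. Etf1, the factor that reads stop codons, was at 0.11, and Pabpc1, the cytoplasmic poly(A)-binding protein, read 41463 in deficient and 41391 in wild-type cells. Genes of translation signalling had 4 of 4 measured genes below 0 with a median of -0.12, from -0.33 for Pdcd4, an inhibitor of eIF4A, and -0.16 for the mTOR brake Tsc2 to -0.09 for Larp1, which holds back ribosomal protein mRNAs, and -0.01 for the kinase Akt1. Of 3 mitochondrial translation genes present, Gfm1 was at 0.27 and Iars2 at -0.15.

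The integrated stress response, in which phosphorylated eIF2 favours ATF4, had a median of -0.02 over 7 measured targets, with 4 below 0. Atf4 read 11298 in deficient and 12639 in wild-type cells (-0.16), and Asns, the asparagine synthetase, 1672 and 1656 in the same order (0.01). Psat1, of serine synthesis, was lowest at -0.54, and Slc3a2, a chain of amino acid transporters, next at -0.45. Cebpb was highest at 0.25, followed by Atf3 at 0.09. A further 3 targets were above the floor in deficient cells alone. Cebpg read 1359 in deficient and 473 in wild-type cells (at least 1.97-fold higher), Trib3 read 1114 and 733 in the same order, and Shmt2 1056 and 836. With these at their bounds the median was 0.02.

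Growth and nucleolar genes had 5 of 6 measured members below 0 and a median of -0.45. The lowest were Srm at -0.77 and the rRNA methyltransferase gene Fbl at -0.65, and the highest were Rrp9 at 0.17 and Polr1b at -0.04. Gar1, of the pseudouridylation complex, was at least 5.41-fold lower, and Myc read 618 in deficient cells, under the floor, and 1092, just over it, in wild-type cells. Cytosolic ribosomal protein genes, of 45 present, had 33 of 39 measured below 0, beside 48.9% of all measured genes, and a median of -0.21. Many were read from probe sets of the shared-family kind, and this list was not put through the other scalings. The lowest were Rps26 at -1.21 and Rpl36 at -0.78, and the highest were Fau at 0.36 and Rpl10 at 0.26.

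Summed signal of cycling-cell and neutrophil markers was lower in deficient cells on both array types. Of the 13 cycling-cell markers listed, 8 of 9 measured were below 0 (median -1.02), with summed intensities of 10630 in deficient and 21375 in wild-type cells on A and 8552 and 19119 in the same order on B. Top2a and Mcm4 were below the floor in both genotypes. Of the 9 neutrophil markers 8 of 8 measured were below 0 (median -0.96), with sums of 105238 in deficient and 136417 in wild-type cells on A, and 41601 and 65972 in the same order on B. Among them S100a8 and S100a9 were at -0.08 and -0.24, within 1 measurement SD of 0. The macrophage markers went both ways, 4 of 7 below 0, with sums of 99393 and 105032 on A and 204362 and 221141 on B, deficient first. Of these Mrc1 was 4.91-fold and Cd14 2.04-fold lower, beside 3.64% of all measured genes lower by 2-fold or more. Csf1r was 1.79-fold and Mpeg1 1.59-fold higher. Of lymphocyte markers 3 of 4 measured were below 0 (median -0.24). Of erythroid markers 1 of 3 measured was below 0, with sums of 71428 in deficient and 106616 in wild-type cells on B. Hbb-b2, a beta globin gene, read 16039 in deficient and 49279 in wild-type cells (3.07-fold lower). Hba-a1 read 50393 and 49059 in the same order (0.04), and Slc4a1 4457 and 3504 (0.35). Alas2, of red cell haem synthesis, read 539 and 4774 in the same order (at least 6.92-fold lower). Among mesothelial and fibroblast markers Col1a1, Col3a1 and Sparc were below 0, while Msln, Krt19, Upk3b and Col1a2 did not give a ratio. Col1a1 read 2074 in deficient and 2364 in wild-type cells (-0.19), within 1 measurement SD of 0. Col3a1 read 2265 and 7353 in the same order (-1.70), and Sparc 1012 and 2886 (-1.51). The part of these cells in the lower elongation, Eif4a1 and Eif5a signal was not tested. The labels give about 60% neutrophils in either genotype. In RNA of mixed cells, fewer cells of a type and less RNA of its marker genes per cell cannot be told apart.

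**Figure D4:**
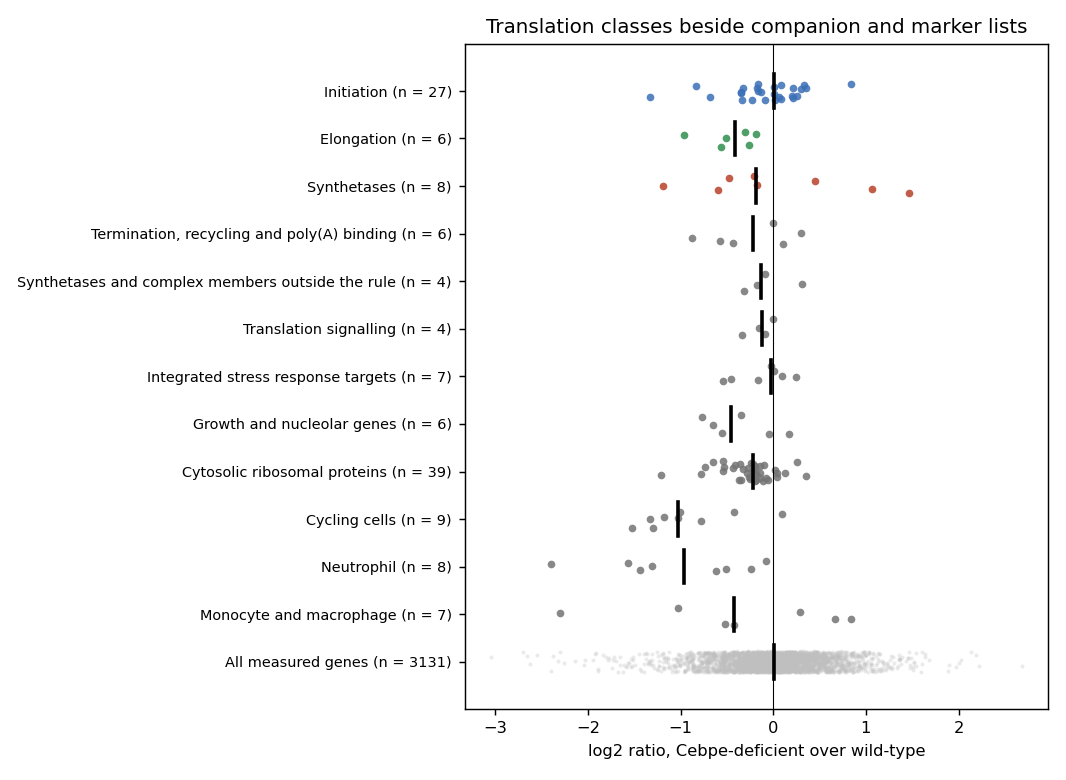
Log2 ratio, Cebpe-deficient over wild-type, of each measured gene in the 3 translation classes (coloured), in companion and marker lists (dark grey) and over all 3131 measured genes (light grey), with black bars at the medians. Vertical scatter within a row has no meaning. Initiation sits on the median of all genes, elongation at -0.41, and the cycling-cell and neutrophil markers at -1.02 and -0.96.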

How the data were processed

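Per the labels, total RNA was hybridised to 4 arrays, 1 per genotype on each of 2 types. The deposited values are linear intensities per probe set, whole numbers of which 20.6% to 29.3% per array are below 0. How the authors scaled and background-corrected them, and with which software, is not given in the sources used here.

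Groups came from sample titles, which alone name the deficiency for the deficient sample on B. Arrays of a type were scaled to equal means over non-control probe sets, trimmed by 2% at each end. Where several probe sets of a gene gave a ratio, the one brightest relative to its floor stood for the gene. A gene above the floor in 1 genotype has a bound against the floor. Genes were named from the platform annotation, in which 224 probe sets had several symbols and 5303 none.

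Every member is accounted for. Readings are printed for every elongation and synthetase gene (of Yars, the measured probe set), the 5 lowest and 5 highest initiation genes and members with several measured probe sets, and the 2 lowest and 2 highest genes of each companion list are named. Other readings and marker genes were chosen after their values were seen. The members and lists were chosen with earlier results of these data known. Alternatives were 5 scalings (none, medians made equal, loess with span 0.3, quantile, bacterial controls), floors at the 30th and 70th percentile, the mean over probe sets or each on its own, no suffixed probe sets, 1 array type, bounds included and 1.5-fold. The procedure was tested on simulated arrays. The number of arrays limits the precision. Computation used statsmodels 0.14.6, scipy 1.17.1, pandas 2.3.3 and numpy 2.4.6 under Python 3.11.15, with plots from matplotlib 3.10.9.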

Additional observations from a re-analysis of the deposited data

How the results depend on the processing

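The elongation median stayed below 0 under all 13 alternatives, though it was Eef1d alone without suffixed probe sets and 2 genes on B. Of 41 measured genes 32 kept their sign wherever they were measured (not Eef1a1, Eef2, Eif1a, Eif1b, Eif2s3x, Eif3a, Eif4ebp1, Eif5 and Wars). Eif1b was at -0.60 on B. Bacterial-control scaling turned the median of all members to 0.037 and that of the synthetases to 0.058, below the median of all genes, 0.21, in both cases. Array type A alone turned the synthetase median to 0.12, since Hars and Wars are on B, and left 1 gene lower by 2-fold. Type B alone, with 11 measured members, gave medians of -0.26 for all, -0.60 for initiation and -0.38 for synthetases, 8 genes below 0, and 1 lower and 0 higher by 2-fold. Without suffixed probe sets 5 members were left, with a median of 0.025 (initiation 0.12), 1 below 0, and 0 lower and 0 higher by 2-fold. A floor at the 30th percentile gave 4 genes lower by 2-fold, adding Rars (-1.87) and Eif2d (-1.50), and one at the 70th gave 1 lower (Eif5a) and 1 higher (Nars). At 1.5-fold 6 were lower. Equal medians added Eif4a1 (2.01-fold lower) and bacterial controls Eif3k (2.01-fold higher) to the genes past 2-fold. Using 1 probe set per sequence accession, an alternative chosen after seeing the data, put the measurement SD at 0.38 log2 units, as with all. No paired analysis was possible because each genotype had 1 array per type and the labels give no replicate numbers. Signal near the floor limits Sars, Qars, Eef2k, Eif2b5, Yars and Tars among others, each under 2 times the floor on average.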
